A study of Mus musculus with 12 samples.

Results

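The genes described here are 34 interferon response and MHC class I genes. They were listed by name, with earlier results of these data known. They were read in small vessel fragments from the cerebrum and cerebellum of mice with and without Notch3. A gene was represented by the probe set that named no other gene and had the highest mean over the 12 arrays. This gave 32 of the 34 genes a value, and all 32 were among the 11716 genes tested. Isg15, which encodes a ubiquitin-like protein, was named only by a probe set shared with other genes, and no probe set named Ifi44 in the annotation used here, so no value is given for either.

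The study hybridised 12 Affymetrix Mouse Genome 430 2.0 arrays, each with RNA from 1 brain region of 1 mouse. The mice were of the C57BL/6 strain and 2 months old. The 3 Notch3 knockout mice and 3 littermate controls each gave a cerebral and a cerebellar sample, which makes 4 groups of 3 arrays, by genotype and region. The extent of the Notch3 deletion and the method of vessel isolation were not given in the sources used here. Vessel fragments hold endothelial cells, mural cells (smooth muscle cells and pericytes), attached astrocyte endfeet and perivascular immune cells, so a value is a mixture over these cells, and fewer cells of a type cannot be told apart from less RNA per cell.

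Notch3 lay between 10.84 and 12.02 log2 in the control arrays and between 2.48 and 3.58 in the knockout arrays. Of the markers of the labelled tissue, endothelial genes had a summed signal of 18.35 to 18.53 log2 over all 12 arrays, with 0 of 19 called by limma in either region between genotypes (2 of 19 at an unadjusted p below 0.05 in each). Mural genes fell in the knockout for 8 of 13 in cerebral and 7 of 13 in cerebellar vessels. Microglial genes rose in knockout cerebral vessels for 11 of 24, where their summed signal was 17.71 to 18.21 log2 against 17.15 to 17.54 in control cerebral vessels; in cerebellar vessels it was 17.15 to 17.25 against 16.93 to 17.18. Of 22 leukocyte markers with a probe set, macrophage genes included, 13 lay at or under the median of all values, 3.27, in every array. Among these 13 were Cd3e of T cells, Cd79a of B cells and S100a8 of neutrophils. The other 9 were tested and none was called by limma between genotypes in either region (0 at an unadjusted p below 0.05); they include Cd4, Cd8a, the B cell genes Cd79b and Ms4a1, and the macrophage genes Lyz2 and Mrc1, and Cd79b had the highest cerebral difference, 1.12 (adjusted p = 0.272).

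Interferons are secreted proteins, and those of type I are released by cells that sense viral nucleic acid. Type I interferons bind the receptor of Ifnar1 and Ifnar2 and act through Stat2 and Irf9 at the interferon-stimulated response element (ISRE); interferon gamma acts at the gamma activated site (GAS) and through Irf1. The induced genes include antiviral effectors, GTPases that attack intracellular pathogens, and the machinery that cuts proteins into peptides and shows them on MHC class I at the cell surface. Brain endothelium carries MHC class I and answers interferon, and a low tonic level of interferon-stimulated transcripts is usual without infection.

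The promoters show which members carry the element through which type I interferon acts. Of the 34 genes, 28 had an entry in the RefSeq promoter table (build GRCm38.p6), which holds 250 bases before to 50 bases after each start. The core of the ISRE was searched on both strands as GAAA, any 2 bases and GAAA again, and the GAS as TTCNNNGAA, which reads the same on both strands. Stretches of 80 bases around the ISRE core are shown for members of 4 kinds, with the matches in capitals, each 5′ to 3′ on the strand of its gene.
Ifit1, antiviral effector, chr19:34640759-34640838, plus strand: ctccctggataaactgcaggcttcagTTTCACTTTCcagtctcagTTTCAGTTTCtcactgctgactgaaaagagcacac
Ifit3, antiviral effector, chr19:34583355-34583434, plus strand: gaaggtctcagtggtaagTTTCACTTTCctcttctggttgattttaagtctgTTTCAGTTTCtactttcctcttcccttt
Bst2, virus tether, chr8:71537555-71537634, minus strand: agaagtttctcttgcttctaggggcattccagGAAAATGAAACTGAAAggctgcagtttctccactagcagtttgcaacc
Gbp2, GTPase, chr3:142620569-142620648, plus strand: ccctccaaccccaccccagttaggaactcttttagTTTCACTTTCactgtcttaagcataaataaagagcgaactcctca
Igtp, GTPase, chr11:58199487-58199566, plus strand: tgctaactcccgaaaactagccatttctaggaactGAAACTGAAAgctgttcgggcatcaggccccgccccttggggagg
B2m, light chain of MHC class I, chr2:122147513-122147592, plus strand: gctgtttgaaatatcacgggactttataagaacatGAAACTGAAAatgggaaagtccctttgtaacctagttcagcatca
Ifit1 and Ifit3 each carried 2 separate matches on the opposite strand, whereas in Bst2 2 matches overlapped on the gene's own strand.

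The ISRE core was found in 14 of the 28 genes (50%), against 3.99% of all 27025 genes in the table. Counted by window, since a gene can have several, it was in 14 of 33 windows of members and in 3.44% of all 32851. It was present in 4 of 4 GTPases and 2 of 2 sensors with an entry, in 6 of 10 antiviral genes, in 1 of 4 signalling factors (Stat2) and in 1 of 3 MHC class I chains (B2m). It was found in 0 of 2 peptide loading genes and 0 of 3 immunoproteasome genes. The GAS letters were found in 6 of 28 genes (21.4%), against 9.55% of all genes (by window 6 of 33, against 8.30%), and Bst2, Ifitm3 and Igtp held both. Windows without these letters may hold related elements with other letters or elements farther away.

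**Figure D1:**
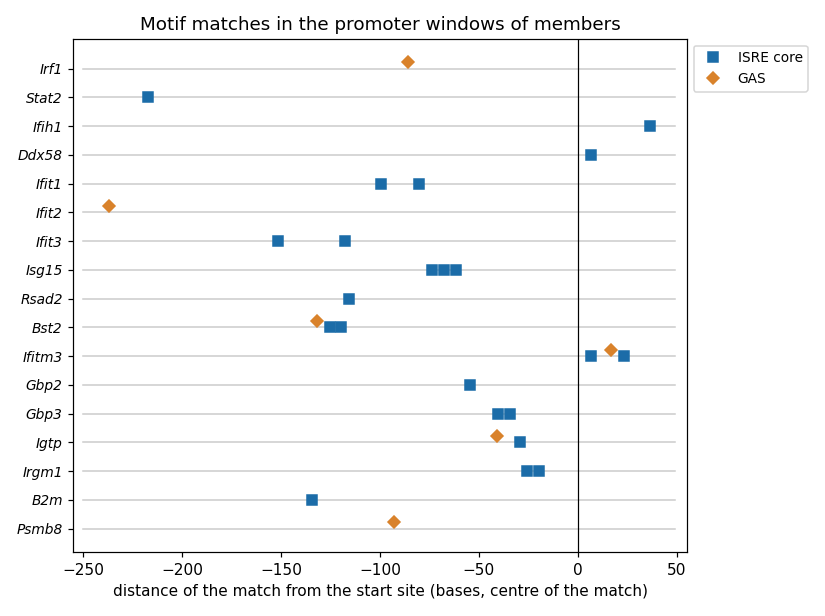
Position of each ISRE core match (squares) and GAS match (diamonds) in the promoter windows of the members that hold one, as the distance in bases of the centre of the match from the start site (vertical line). Most ISRE matches sit upstream of the start, while those of Ifih1, Ddx58 and Ifitm3 sit downstream of it.

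Tap1 and Psmb9 share 1 promoter. Their starts face away from each other on chromosome 17 with 225 bases between them, so that their windows overlap by 275 bases. The stretch between the starts is printed because Tap1 is the member that passed the test below. It is written on the Tap1 strand and reads from the Psmb9 start to the Tap1 start, with no ISRE core or GAS match in it. The line below names the pair, not the direction.
Tap1 to Psmb9, chr17:34187331-34187555, plus strand: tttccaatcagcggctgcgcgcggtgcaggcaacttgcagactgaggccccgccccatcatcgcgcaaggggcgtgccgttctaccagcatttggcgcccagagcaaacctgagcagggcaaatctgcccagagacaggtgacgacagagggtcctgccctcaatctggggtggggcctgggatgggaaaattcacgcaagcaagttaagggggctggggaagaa

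The first comparison asked whether the loss of Notch3 moved these genes in cerebral vessels. Tap1 fell, and it was the only member of 32 past the threshold of the limma test, an adjusted p of 0.05 over all 11716 genes; in this comparison 6.38% of all genes were called, 3.93% in the lower direction. No member rose, and 6 of 32 had an unadjusted p below 0.05, against 20.6% of all genes. The difference, knockout minus control, was below 0 in 29 of 32 members, and its median was -0.16 log2 against -0.01 over all genes. It ranged from -0.52 for Iigp1 to 0.10 for Bst2. The 3 values of one genotype all lay above the 3 of the other in 3 members, Tap1, Gbp2 and Gbp3 (9.38%), against 24.4% of all genes, so the share of separated members was below the background.

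In cerebellar vessels no member was called, whereas 4.22% of all genes were. By limma's unadjusted p, 3 of 32 members were below 0.05, against 16.8% of all genes. The difference was below 0 in 23 members, with a median of -0.10 log2 against 0.01 over all genes, and ranged from -0.34 for Psmb8 to 0.26 for Bst2. The genotypes did not overlap in 1 member, H2-D1, against 22.1% of all genes. Both comparisons rest on the same 6 mice.

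With each mouse counted once, as the mean of its regions, 0 of 32 members passed the limma test, against 4.03% of all genes, and 6 were below an unadjusted p of 0.05, against 19.7%. The median difference was -0.12 log2, and the lowest adjusted p was 0.0874, for Tap1. No member separated the genotypes in both regions in the same direction, against 10.3% of all genes. The 95% confidence interval of the difference lay within 1 log2 unit of 0 for 31 of 32 members in cerebral vessels and for 32 of 32 in cerebellar vessels, and within 0.5 for 17 and 21. Larger shifts than those are therefore outside the intervals of these members. The interval lay wholly below 0 for 6 members in cerebral and 3 in cerebellar vessels, and wholly above 0 for 0. For the other members a shift of 0 lies inside the interval. These intervals are not adjusted for the number of genes tested. The wider of the ranges within the compared groups exceeded the difference of their means in 30 of 32 members in cerebral and 31 of 32 in cerebellar vessels. The share over all genes was not computed for this count.

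**Figure D2:**
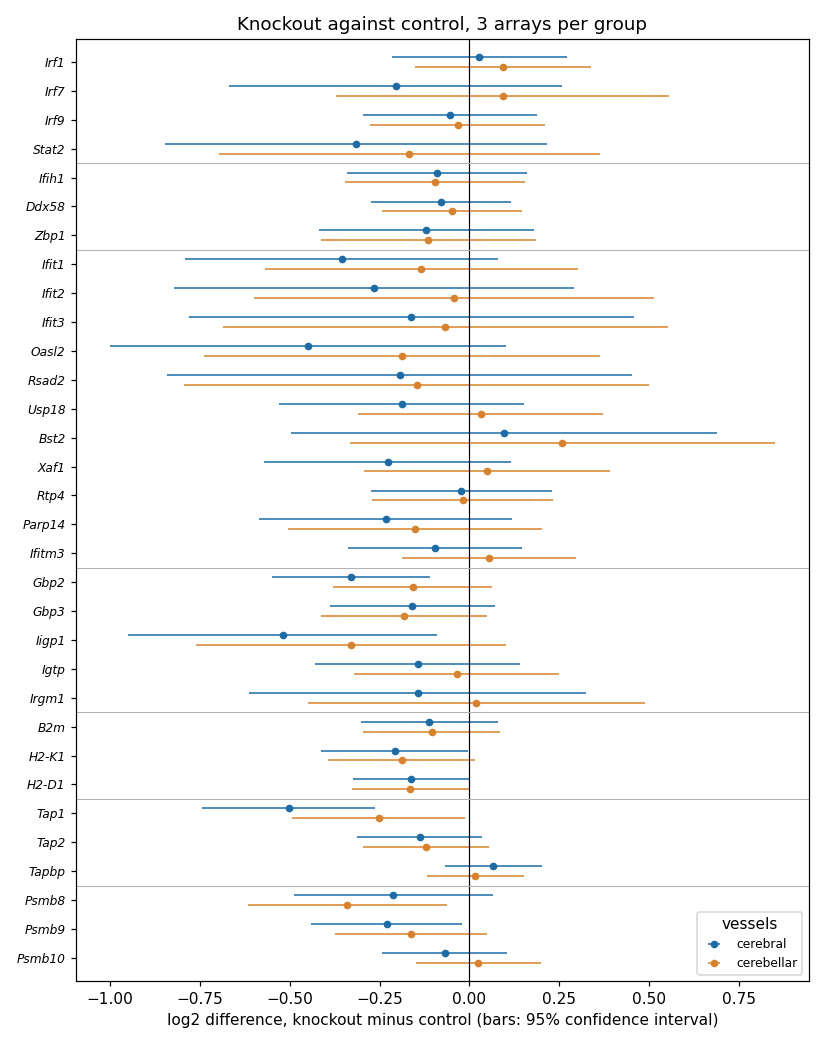
Difference of knockout minus control in log2 units (horizontal axis) for each of the 32 members in cerebral (blue) and cerebellar (orange) vessels, with the 95% confidence interval of the fit as bars, 3 arrays per group. Most points lie to the left of 0 and most intervals cross it; the cerebral interval of Tap1 runs from -0.74 to -0.26.

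Tap1 and Tap2 form the transporter that brings peptides into the endoplasmic reticulum, and Tapbp (tapasin) bridges it to class I molecules. Tap1 was at 9.21, 9.17 and 9.24 log2 in the control cerebral arrays and at 8.75, 8.85 and 8.51 in the knockout cerebral arrays. All 3 knockout mice were below all 3 controls there, and the third knockout mouse was the lowest. The cerebral difference was -0.50 (SE 0.11, limma adjusted p = 0.0223).
In the cerebellum Tap1 was at 9.22, 9.25 and 9.01 in controls and at 9.05, 8.95 and 8.72 in knockouts. The groups overlapped there, since the first knockout mouse lay above the third control. The cerebellar difference was -0.25 (SE 0.11, limma adjusted p = 0.273). The limma test of the difference between regions, without a mouse term, gave 0.25 (SE 0.15, adjusted p = 0.999). The cerebral and cerebellar effects on Tap1 are thus not shown to differ. The cerebral call of Tap1 was lost without any single array of the comparison other than that of the second knockout mouse: the adjusted p was then 0.054 to 0.0774, and 0.0159 without that mouse. The lower mural and higher microglial signals given above moved in the same samples, and their part in the Tap1 difference was not tested.

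Tap2, the partner subunit, was at 10.36, 10.41 and 10.29 in control and 10.10, 10.36 and 10.18 in knockout cerebral vessels, with overlapping groups and a difference of -0.14 (SE 0.08, limma adjusted p = 0.362). Tapbp ran from 12.93 to 12.96 in control and from 12.95 to 13.05 in knockout cerebral vessels, a difference of 0.07 (SE 0.06, limma adjusted p = 0.603). Its other probe set that passed the filter gave a difference of -0.14 there, so the sign for Tapbp depended on the probe set. Of the 3 loading genes Tap1 alone was called.

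H2-K1 and H2-D1 encode the heavy chains that hold the peptide, and B2m the light chain that all class I molecules share. The probe sets used for H2-K1 and H2-D1 carry probes that may also bind near-identical class I genes, so each value may mix several of them. H2-K1 was at 13.73, 13.87 and 13.82 in control and 13.54, 13.77 and 13.49 in knockout cerebral vessels, and at 13.75, 13.90 and 13.85 in control and 13.68, 13.76 and 13.49 in knockout cerebellar vessels. In each region the second knockout mouse reached above the lowest control, and the others lay below all controls. The difference was -0.21 (SE 0.09, limma adjusted p = 0.231) in cerebral and -0.19 (SE 0.09, limma adjusted p = 0.342) in cerebellar vessels.

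H2-D1 was at 14.59, 14.73 and 14.68 in control and 14.45, 14.65 and 14.41 in knockout cerebral vessels, and at 14.68, 14.78 and 14.73 against 14.61, 14.60 and 14.49 in the cerebellum. The cerebellar groups did not overlap, though the gap between them was small. The difference was -0.16 in both regions (SE 0.07), with limma adjusted p of 0.242 and 0.291. H2-D1 had 5 probe sets that passed the filter and H2-K1 had 4. All of them had a mean difference below 0 in both regions, from -0.47 to -0.16 for H2-D1 and from -0.54 to -0.19 for H2-K1 in cerebral vessels, and none was called when each probe set was tested on its own, with a lowest adjusted p of 0.184.

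B2m was at 14.78, 14.87 and 14.84 in control and 14.75, 14.82 and 14.58 in knockout cerebral vessels, and at 14.77, 14.91 and 14.80 against 14.75, 14.86 and 14.57 in the cerebellum. Only the third knockout mouse stood apart, below every other mouse in both regions. The difference was -0.11 (SE 0.09, limma adjusted p = 0.518) and -0.10 (SE 0.09, limma adjusted p = 0.618). Of the 3 chains none was called.

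Psmb8, Psmb9 and Psmb10 are the catalytic subunits that replace the standard ones when interferon gamma acts, and they change which peptides are cut. Psmb8, named here after its values were seen, was at 11.02, 11.10 and 11.29 in control and 10.77, 11.11 and 10.90 in knockout cerebral vessels. In the cerebellum it was at 10.84, 11.02 and 11.03 in controls and 10.53, 10.86 and 10.47 in knockouts, where the second knockout mouse reached just above the lowest control. The cerebellar difference, -0.34 (SE 0.12, limma adjusted p = 0.19), was the lowest of all members in that region. Psmb9, which shares its promoter with Tap1, differed by -0.23 (SE 0.09, limma adjusted p = 0.2) in cerebral and -0.16 (SE 0.09, limma adjusted p = 0.447) in cerebellar vessels, with overlapping groups in each. Psmb10, which lies on another chromosome, differed by -0.07 and 0.02.

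Gbp2 and Gbp3 are guanylate-binding proteins, and Iigp1, Igtp and Irgm1 are immunity-related GTPases; both families act on membranes around intracellular pathogens. Gbp2 was at 13.10, 13.02 and 13.31 in control and 12.69, 12.9999 and 12.76 in knockout cerebral vessels, and at 13.11, 12.93 and 13.09 against 12.85, 12.94 and 12.87 in the cerebellum. The cerebral groups were apart by a narrow margin, with the second knockout mouse next to the lowest control. The cerebral difference was -0.33 (SE 0.10, limma adjusted p = 0.0823), and it passed the threshold without that mouse (-0.42, adjusted p = 0.0279). The probe set used for Gbp2 also carries probes that may bind related genes. Another Gbp2 probe set that passed the filter, not of this kind, gave a cerebral difference of -0.35 (SE 0.13).

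Gbp3 was at 13.58, 13.54 and 13.59 in control and 13.49, 13.49 and 13.24 in knockout cerebral vessels, and at 13.59, 13.48 and 13.53 against 13.41, 13.53 and 13.12 in the cerebellum. The third knockout mouse was the low one in each region, and the other knockout mice lay close to the controls. The difference was -0.16 (SE 0.10, limma adjusted p = 0.438) and -0.18 (SE 0.10, limma adjusted p = 0.432).
Iigp1, named after its values were seen, had the lowest cerebral difference of all members, -0.52 (SE 0.19, limma adjusted p = 0.159). It was at 12.02, 11.696 and 12.46 in control and 11.61, 11.73 and 11.28 in knockout cerebral vessels. A range of 3 controls that wide left the groups overlapping, although the difference was as large as that of Tap1. Igtp and Irgm1 each differed by -0.14 in cerebral vessels.

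The 11 measured antiviral effectors and regulators include Ifit1, Ifit2 and Ifit3, which bind viral RNA, and Rsad2 (viperin), which makes a chain-terminating nucleotide. They also include Oasl2 of the oligoadenylate synthetase family and Bst2 (tetherin), which holds budding virus at the membrane. Ifitm3, which blocks viral entry, and Usp18, a brake on the interferon receptor, belong to them too. None of the 11 was called in any comparison. The cerebral difference was below 0 in 10 of 11, with a median of -0.19, and the cerebellar one in 7 of 11, with a median of -0.04. The 4 genes next described were chosen after their values were seen, for their spread among mice.

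Ifit3 was at 11.62, 11.42 and 12.10 in control and 11.62, 11.95 and 11.07 in knockout cerebral vessels, and at 11.48, 11.48 and 12.004 against 11.72, 11.91 and 11.12 in the cerebellum. The genotypes interleaved, with the lowest and the second highest cerebral value both from knockout mice. The difference was -0.16 (SE 0.28) in cerebral vessels.
Rsad2 was at 12.18, 11.52 and 12.08 in control and 12.07, 11.9997 and 11.14 in knockout cerebral vessels, and at 12.16, 11.57 and 11.98 against 12.12, 11.80 and 11.35 in the cerebellum. In each genotype 1 mouse was low in both regions, the second control and the third knockout. Oasl2 was at 11.78, 11.10 and 11.95 in control and 11.23, 11.39 and 10.87 in knockout cerebral vessels, and its difference of -0.45 (SE 0.25, limma adjusted p = 0.346) came with the same mice low.

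Bst2 was the member with the highest difference in each region. It was at 9.51, 9.55 and 10.25 in control and 9.66, 10.09 and 9.84 in knockout cerebral vessels, and at 9.51, 9.45 and 10.42 against 9.99, 10.20 and 9.96 in the cerebellum. The third control mouse was the highest of all in both regions and the other controls were the lowest, so the groups overlapped; the cerebellar difference was 0.26 (SE 0.27, limma adjusted p = 0.71). Ifitm3, one of the 6 members with the highest mean, was at 14.50, 14.51 and 14.77 in control and 14.51, 14.50 and 14.48 in knockout cerebral vessels, and at 14.35, 14.59 and 14.79 against 14.66, 14.70 and 14.54 in the cerebellum. The third control stood above the rest in both regions, and the differences were -0.10 (SE 0.11, limma adjusted p = 0.697) and 0.05 (SE 0.11, limma adjusted p = 0.871).

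**Figure D3:**
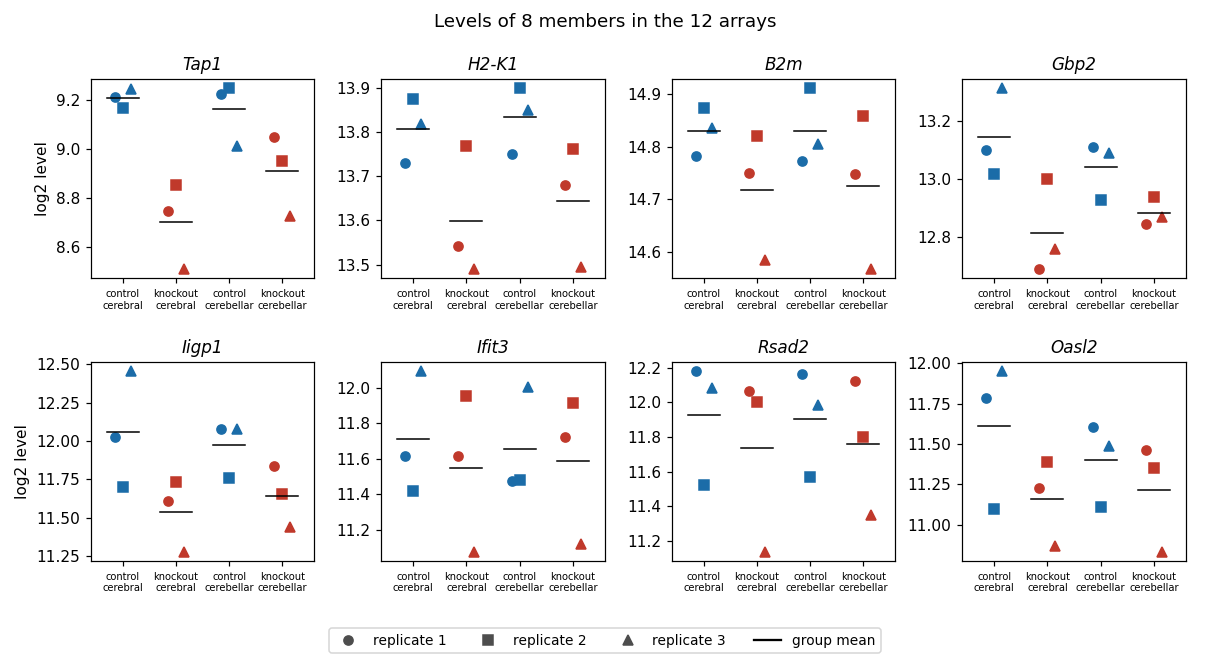
Log2 level of 8 members (vertical axes, scaled separately) in the 12 arrays by group, with controls in blue, knockouts in red, a symbol for each replicate number and a line at the group mean. Triangles mark replicate 3: the knockout triangles are the lowest of their group in both regions for Tap1, H2-K1, B2m, Iigp1, Ifit3, Rsad2 and Oasl2, while of these 8 only Tap1 and Gbp2 separate the genotypes in cerebral vessels.

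Stat2 and Irf9 act at the ISRE, Irf1 and Irf7 are transcription factors that interferon and infection induce, and Ifih1 (MDA5), Ddx58 (RIG-I) and Zbp1 sense foreign nucleic acid. Their cerebral differences ran from -0.32 for Stat2 to 0.03 for Irf1 among the 4 factors, and from -0.12 for Zbp1 to -0.08 for Ddx58 among the 3 sensors; the cerebellar ones ran from -0.17 to 0.09 and from -0.12 to -0.05. None of the 7 was called, and none had an unadjusted limma p below 0.05 in either region. A second passed probe set gave a cerebral difference of 0.10 for Stat2 and of -0.31 for Ddx58. Of the 13 members with several passed probe sets, the probe sets shared a sign in 9 in cerebral and in 11 in cerebellar vessels. Stat2 and Zbp1 were dim, with no array above 4.94.

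The members also varied together among the mice of a genotype. The third knockout mouse was the lowest of its genotype in both regions for 24 of 32 members (75%), against 15.5% of all genes tested. The second control mouse was the lowest of its genotype in both regions for 17 of 32 (53.1%), against 16.5% of all genes. Cell type markers moved with it in part. The second control mouse was also the lowest of its genotype in both regions for 17 of 24 microglial markers (70.8%). It was the highest in both regions for 7 of 13 mural markers (53.8%, against 10.3% of all genes). The third knockout mouse was the lowest in both regions for 0 of 24 microglial and 3 of 13 mural markers. In cerebellar vessels alone it was the lowest for 10 of 13 mural and 7 of 24 microglial markers, against 3797 of 11716 genes. In cerebral vessels alone these counts were 4 and 0, against 3841 genes. The part of these markers in the members' ranks was not tested. These mice were picked out after their values were seen, members of one pathway are not independent of each other, and the counts are a description with no test. From the second to the third knockout mouse the median difference over members was -0.27 log2 in cerebral and -0.25 in cerebellar vessels. This gap lies between single mice picked from the ends of their genotype, so it cannot be weighed against a difference of genotype means.

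**Figure D4:**
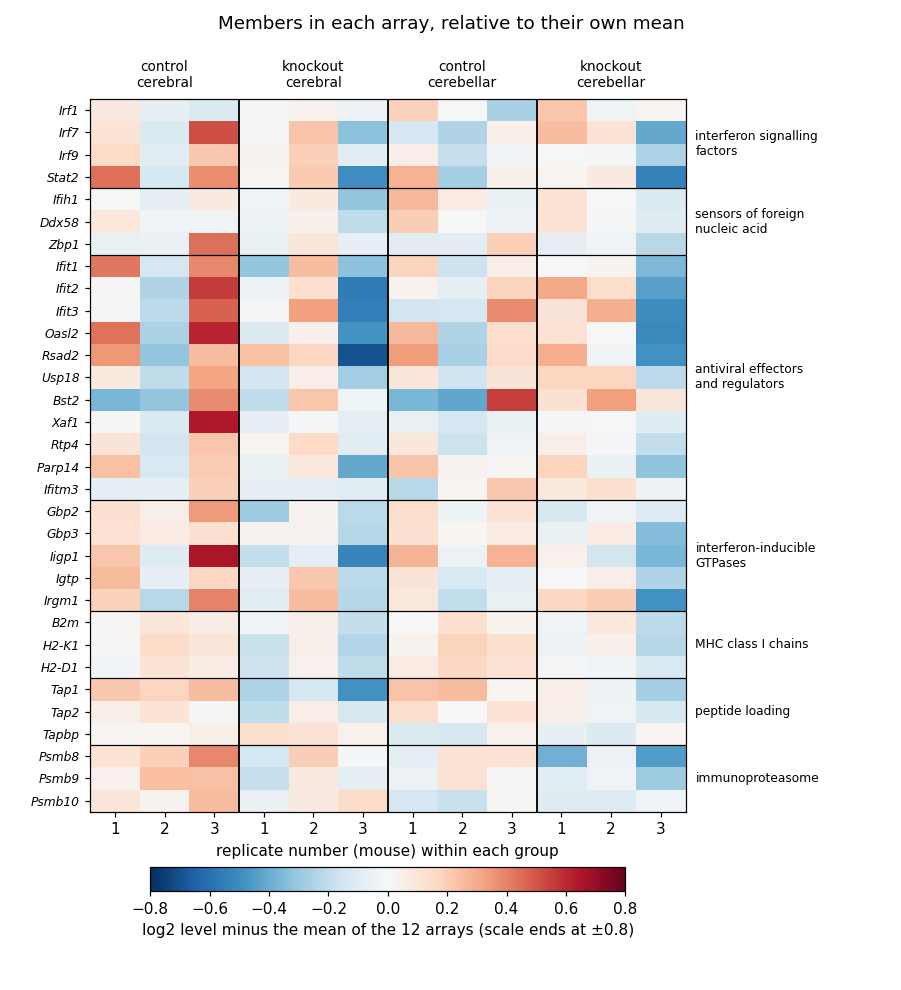
Log2 level of each of the 32 members (rows, by role) in each of the 12 arrays (columns) minus its own mean over the arrays, from blue (lower) to red (higher) on a scale that ends at 0.8 in each direction. The column of knockout replicate 3 is blue in most rows in both regions, and that of control replicate 2 is blue for most antiviral genes and GTPases but pale red for the MHC class I chains.

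By kind of gene the counts were as follows, on sets too small for more than a description. In the third knockout mouse the lowest value in both regions held for 10 of 11 antiviral genes (all but Bst2), 3 of 3 sensors, 4 of 5 GTPases, 3 of 4 factors and 3 of 3 MHC class I chains, but for 1 of 3 peptide loading genes (Tap1) and 0 of 3 immunoproteasome genes, of which 2 were lowest there in the cerebellum alone. In the second control mouse it held for 5 of 5 GTPases and 7 of 11 antiviral genes, and for 0 of 3 class I chains. For B2m, H2-K1, H2-D1 and Psmb9 that control was instead the highest of its genotype in both regions. Most antiviral genes and the class I chains were thus low in the third knockout mouse, while in the second control mouse the antiviral genes were mostly low and the chains high.

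A further list of 38 tested interferon-stimulated genes outside the members was ranked in the same way: the third knockout mouse was the lowest of its genotype in both regions for 20 of 38 (52.6%), among them Mx2, Oas1a, Oas2, Cmpk2 and Herc6, and the second control mouse also for 20 of 38. Over other lists of the pathway the counts for the third knockout mouse were 4 of 6 for further GTPases, 4 of 14 for transcription factors and brakes, 2 of 7 for further MHC class I genes and 3 of 15 for nucleic acid sensing. For 14 further antigen processing genes, which include the chaperones Calr and Canx and the standard proteasome subunits, the third knockout mouse was the lowest for 2 and the third control mouse the highest for 12. Of the 13 tested members with the ISRE core in the promoter window, 11 had their lowest value of the genotype in both regions in the third knockout mouse, and of the 13 tested members without it 8 did.

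**Figure D5:**
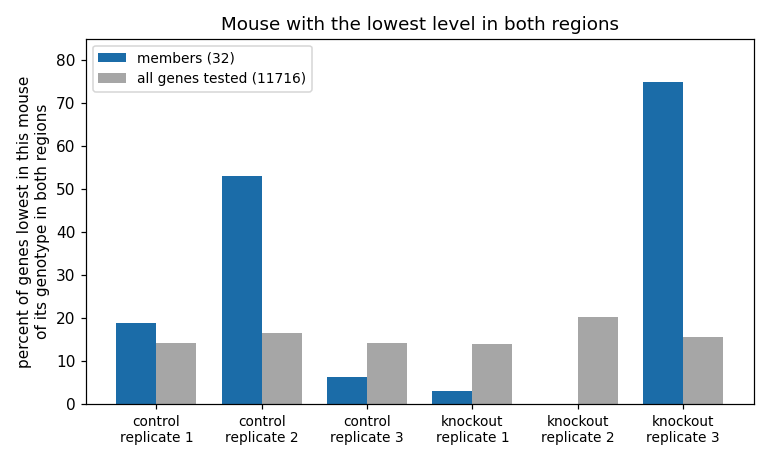
Percent of genes (vertical axis, from 0) whose lowest value of the genotype fell in the named mouse in both regions, for the 32 members (blue) and for all 11716 genes tested (grey). The members reach 75% in knockout replicate 3 and 53.1% in control replicate 2, against 15.5% and 16.5% of all genes. No member was lowest in knockout replicate 2 in both regions.

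At the upper end, the second knockout mouse was the highest of its genotype in both regions for 13 of 32 members (40.6%), against 21.5% of all genes, and the third control mouse for 11 of 32 (34.4%), against 23.2%. The third control mouse was also the highest of its genotype in both regions for 15 of 24 microglial markers (62.5%), and the second knockout mouse for 0 of 24; their part was not tested. Xist, an RNA made from the inactive X chromosome of female cells, was at 2.75 to 2.87 log2 in the second knockout and the third control mouse and at 12.86 to 13.31 in the others. With the Xist level as a covariate the cerebral difference of Tap1 was -0.50 (limma adjusted p = 0.0299), and its part in the ranks of the mice was not tested.

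The median difference over members depended on single mice. In cerebral vessels it was -0.16 with all arrays, -0.09 without the third knockout mouse, -0.27 without the second knockout mouse, -0.10 without the third control and -0.22 without the second control. In cerebellar vessels it went from -0.10 to -0.0006 without the third knockout mouse and to -0.05 without the first control. It was -0.14 without the first or the second knockout mouse, -0.11 without the second control and -0.10 without the third control. On the means per mouse it went from -0.12 to -0.04 without the third knockout mouse and to -0.18 without the second. Without the array of the third knockout mouse the cerebellar median was thus close to 0.

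Of the 32 members, 7 lie within 20 Mb of Notch3 on the same chromosome: Tap1, Tap2, Tapbp, Psmb8, Psmb9, H2-K1 and H2-D1. In cerebral vessels 1 of these 7 was called by limma and 4 had an unadjusted p below 0.05. The median difference was -0.21 and 6 of 7 were below 0. Of the other 25 members none was called by limma (2 had an unadjusted p below 0.05), the median was -0.16 and 23 were below 0. In cerebellar vessels the medians were -0.16 and -0.05, and 3 of the 7 and 0 of the 25 had an unadjusted limma p below 0.05. Among all 381 tested genes in the same window, 20 rose and 17 fell in cerebral vessels with a median of -0.00, and among the 11297 tested genes placed elsewhere 266 rose and 443 fell. An unadjusted limma p below 0.05 was found for 96 of the 381 in cerebral and 97 in cerebellar vessels. Among the 11297 these counts were 2305 and 1860. The neighbourhood of the targeted gene is passed on together with it, so for these 7 members the loss of Notch3 and the inheritance of its surroundings cannot be told apart.

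Upstream of the members, the list of interferon ligands, receptors and kinases had 7 tested genes. The ligands Ifna1, Ifna2, Ifna4, Ifnb1 and Ifng lay under 3.27 in all 12 arrays, with no array above 2.57, so none of these 5 was measured above the median of all values. Ifngr1, the binding chain of the interferon gamma receptor, was at 9.998 to 10.16 in control and 10.66 to 11.05 in knockout cerebral vessels. It rose by 0.72 (SE 0.10, limma adjusted p = 0.00192), and on the means per mouse by 0.48 (SE 0.06, adjusted p = 0.0127). The other 6, including Ifnar1, Ifnar2, Jak1 and Tyk2, were not called in any comparison of genotypes.

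Among 15 tested genes of nucleic acid sensing, Tlr7, an endosomal receptor for single-stranded RNA, rose in knockout cerebral vessels from 7.58 to 8.03 in controls to 8.94 to 9.70, by 1.55 (SE 0.19, limma adjusted p = 0.000782). Myd88, the adaptor of most Toll-like receptors, fell in knockout cerebellar vessels by 0.39 (SE 0.07, limma adjusted p = 0.0117). Among 7 further MHC class I genes, Cd1d1, which presents lipids, rose by 1.01 (SE 0.16, limma adjusted p = 0.00437) and Hfe, which regulates iron uptake, by 0.32 (SE 0.07, limma adjusted p = 0.0272), both in cerebral vessels. On the means per mouse Tlr7 was called (1.06, adjusted p = 0.011), while Myd88 (adjusted p = 0.0595), Cd1d1 (adjusted p = 0.0796) and Hfe (adjusted p = 0.16) were not. The microglial markers rose in the same samples, 11 of 24 with a median of 0.84, and their part in the rise of Ifngr1, Tlr7, Cd1d1 and Hfe was not tested.

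Among the 38 further interferon-stimulated genes, Cxcl11, a chemokine that draws activated T cells, fell in both regions: by 0.71 (SE 0.10, limma adjusted p = 0.00276) from 7.47 to 7.80 in control cerebral arrays to 6.82 to 6.97 in the knockout, and by 0.51 (SE 0.10, limma adjusted p = 0.0194) in cerebellar vessels. Ifitm1, a relative of Ifitm3, fell by 1.29 (SE 0.31, limma adjusted p = 0.0436) in cerebellar vessels; its cerebral difference of -1.15 did not pass (adjusted p = 0.0555). On the means per mouse Cxcl11 was called (-0.61, adjusted p = 0.00885) and Ifitm1 was not (adjusted p = 0.0775). The other 36 were not called in either region. None of 14 further transcription factors and brakes, 6 further GTPases and 14 further antigen processing genes was called by limma between genotypes in cerebral vessels, with 2, 1 and 0 at an unadjusted p below 0.05, nor in cerebellar vessels, with 1, 0 and 2.

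Between regions, cerebellar minus cerebral, no member was called by limma in controls (1 at an unadjusted p below 0.05, against 15.2% of all genes), where 2.29% of all genes were, nor in knockouts (2 at an unadjusted p below 0.05, against 21.4%), where 6.80% were. The median difference over members was -0.08 in controls and 0.03 in knockouts. The regions did not overlap in 1 member in controls, Psmb10, against 21.0% of all genes, and in 2 in knockouts, Tapbp and Ifitm3, against 25.4%. Since both regions came from the same mice, the mouse was also taken as a random block. With it Psmb10 was called in controls, lower in the cerebellum by a difference of -0.22 (adjusted p = 0.0426, against 0.199 without the block), and Psmb8 in knockouts, with -0.31 (adjusted p = 0.0422, against 0.186 without the block). With the mouse as a fixed block, chosen after seeing the data, Psmb10 was not called (adjusted p = 0.0519), and Psmb8 was (adjusted p = 0.0229).
Psmb10 was at 11.13, 11.07 and 11.28 in cerebral and 10.90, 10.86 and 11.04 in cerebellar control arrays, so that each control mouse was lower in its cerebellum. Outside the members, Socs3, a feedback inhibitor of cytokine receptors, was higher in the cerebellum by 1.98 in controls (limma adjusted p = 0.00216). In knockouts it was higher by 1.66 (limma adjusted p = 0.00231). In knockouts 3 of 15 nucleic acid sensing genes and 2 of 14 transcription factors and brakes were called lower in the cerebellum. So were 1 of 7 ligands, receptors and kinases, 1 of 38 further interferon-stimulated and 1 of 7 further MHC class I genes. The lowest differences were -1.34 for Tlr7 and -1.21 for Irf5. Of the microglial markers 21 of 24 were lower there too, and their part was not tested. In controls 1 of 14 further antigen processing genes was called higher.

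The last comparison asked whether the effect of the knockout differed between the regions. No member was called by limma and none had an unadjusted p below 0.05, while 0.0427% of all genes were called and 4.66% had such an unadjusted p. The difference of the knockout effect, cerebellar minus cerebral, had a median of 0.09 over members and was above 0 in 27 of 32, from -0.13 for Psmb8 to 0.30 for Irf7. The interval for Irf7 ran from -0.36 to 0.95, and for 29 of 32 members the interval lay within 1 log2 unit of 0. The interval of every member included 0, so regional differences inside these intervals remain possible. The fit behind these intervals and p-values held no mouse term, although both regions came from the same mice. With the mouse as a random block no member was called either.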

How the data were processed

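The deposited table held 1 log2 level for each probe set and array. The authors made it with GCRMA 2.32.0, per the submitters' processing notes, and it was used without rescaling. GCRMA corrects background, normalises arrays and summarises probes, and it can compress differences of dim probe sets. Biotinylated cRNA came from a small sample amplification protocol, per the labels. Of 45101 probe sets, 34958 named 1 gene, 932 several and 9211 none, 64 of these controls. Probe sets with at least 3 of 12 arrays above the median of all values (3.27) were kept, 1 per gene, which left 11716 genes.

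Tests used limma 3.58.1 on R 4.3.3 (lmFit, eBayes, two-sided), on 4 group means over 12 arrays with 8 residual degrees of freedom, and on the 6 per-mouse means with 4. Adjusted p-values are Benjamini-Hochberg over all genes tested. A gene with an adjusted p below 0.05 is called. The script was tested on simulated data. The number of arrays limits the precision.

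Members and lists were chosen with earlier results of these data known. Members were given in full when called, when separated in both regions, or when among the 6 highest in mean level. From each other list up to 4 called genes per comparison of genotypes were named. Replicates are separate mice, per the series' design. The replicate number was read as the mouse: deviations of the regions with the same number correlated with r from 0.371 to 0.705 across genes, and of different numbers with at most 0.144. Across genotypes the numbers do not pair the samples. Motifs were searched as exact letters in the RefSeq promoter table. Alternatives covered the filter, probe set choice, scaling, variance model, array weights, blocks, the window around Notch3 and leaving out arrays.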

Additional observations from a re-analysis of the deposited data

How the results depend on the processing

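Of the knockout comparisons, the cerebral count of 1 called member became 2 (Tap1 and Gbp2) with array weights and with the Xist level as a covariate, which was chosen after seeing the data, and 0 with only the arrays of the groups compared, a fit on fewer samples. Leaving out each array in turn gave 0 to 2. The cerebellar count of 0 became 1 (Psmb8) with the Xist covariate, and the count on means per mouse was 0 under every alternative run. Tap1 kept its direction in cerebral vessels under 17 alternatives, from -0.58 to -0.41, and was called in 11 (adjusted p 0.00751 to 0.0774). The control region count of 0 became 1 (Psmb10) with array weights and with the mouse as a random block; the knockout region count of 0 became 1 (Psmb8) with the mouse as a random block, with the mouse as a fixed block, added after seeing the data, and with the Xist covariate. Where not stated, the cause was not tested. With the replicate number as a block, the deviations of same-numbered samples correlated across genotypes with r from -0.166 to 0.259, and the counts of called members stayed at 1 in cerebral and 0 in cerebellar vessels (Tap1 adjusted p 0.00751). The count for the difference between regions was 0 under every alternative run.

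With 3 mice per genotype, the median width of a member's interval to each side of its cerebral difference was 0.26 log2. Fits that leave out an array keep 2 in that group and share the spread of all groups.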
